A study of Mus musculus with 16 samples.

Results

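The change of polysome loading caused by RAM siRNA was measured in mouse ESCs for 13353 of the 46983 genes in the count table, those with a mean of at least 10 counts in each of 4 groups of libraries. For each replicate number, the log2 ratio of polysome over input CPM (counts divided by the TMM-scaled size of their library) in control cells was subtracted from the same ratio in RAM siRNA cells. Each gene therefore has 4 paired values on the log2 scale, and a value below 0 means that less of its RNA was in polysomes, relative to input, after RAM siRNA than in control cells. The genes were chosen by their level in each of the 4 groups and not by the paired values themselves. A gene whose RNA was almost lost from any of these groups could still be left out by this limit. The value is relative to the other genes of a library, and a loss of polysomes shared by all transcripts cannot be seen in it.

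All groups were 46C ESCs of strain 129Ola, which carry Sox1-GFP and were grown with LIF. Cells were transfected with non-targeting control siRNA or RAM siRNA and collected 48 hr later, after a short incubation in cycloheximide, which holds ribosomes on the mRNA. The study's supplement names a single RAM siRNA for the 4 replicate transfections. Effects of RAM loss and other effects of that siRNA therefore cannot be told apart here. The samples are named input Ct, input siRAM, polysome Ct and polysome siRAM, with 4 replicates each. Input was 10% of the cytoplasmic extract purified with Trizol, and polysome RNA came from pooled sucrose gradient fractions 17 to 22, purified with phenol and precipitated with LiCl, so the fractions also differed in how RNA was prepared. The ESCs are a single line. The labels give replicate numbers only, and the study describes the replicates as biological, with gradients run on independent occasions.

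The mRNA cap is added to the start of transcripts made by RNA polymerase II and is methylated on its guanosine by RNMT, whose activating subunit is RAM. The methylated cap is bound by eIF4E within the eIF4F complex, which recruits the small ribosomal subunit. Transcripts carrying several ribosomes sediment as polysomes, and the share of a transcript found there depends on initiation, elongation and the length of the coding sequence.

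The targeted gene was examined first. Ramac, which encodes RAM (chromosome 7, 81762925 to 81769491, GRCm38), was at 10.6, 10.1, 10.8 and 11.6 CPM in input Ct and at 3.13, 2.68, 3.13 and 3.19 CPM in input siRAM. In polysomes it was at 6.65, 6.96, 8.84 and 14.7 CPM in control cells and at 0.993, 0.316, 2.28 and 2.63 CPM in RAM siRNA cells. All RAM siRNA libraries lay below all control libraries of the same fraction (p = 0.0286 by an exact permutation test, two-sided, which cannot go lower with 4 libraries a group), at 27.9% of the control mean in input and 16.5% in polysomes. The paired loading values of Ramac were -0.98, -2.54, -0.17 and -0.61, all below 0, and rested on as few as 5 counts in a polysome siRAM library. Rnmt, the catalytic partner, had loading values on both sides of 0 (-0.04, 0.13, -0.25 and 0.10).

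Libraries held 16647523 to 20147833 counts. All 8 ESC markers passed the filter on low counts. Their summed level was 4540 to 4860 CPM in input Ct and 3810 to 4370 CPM in input siRAM, ranges that did not overlap, and 6030 to 7610 and 4210 to 7370 CPM in polysomes. Of 6 markers each, 5 neural, 4 extraembryonic endoderm, 2 fibroblast and 2 trophectoderm genes passed the filter, none of the listed markers was at 0 in all libraries, and none of these sums was above 103 CPM in any library. Trophectoderm markers summed to 37.7 to 44.7 CPM in input Ct and 26.2 to 37.2 CPM in input siRAM, and the part of either marker shift in the loading results was not tested. In bulk libraries, fewer cells of a type and less RNA per cell cannot be told apart. The polysome siRAM library of replicate 2 stood apart from the other polysome libraries by transcript length, as described with the length results.

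Without a term for the replicate number, 0 of 13353 genes (0%) passed an adjusted p under 0.05 for a change of loading (edgeR quasi-likelihood test of the interaction of fraction and siRNA), and the lowest adjusted p was 0.174. An unadjusted p under 0.05 was reached by 110 genes, 88 of them lower and 22 higher. Libraries with the same number deviated together from their group means. With a replicate block within each fraction, 2 of 13353 genes passed (0.015%), both lower. With input and polysomes of each culture also paired, 6 passed (0.0449%), 4 lower and 2 higher. The largest shifts of single transcripts are therefore described first, followed by families and functions, which are given as counts and medians beside those of all genes.

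Syap1, which encodes synapse-associated protein 1 (chromosome X, 162857057 to 162888447, GRCm38), had the lowest mean among genes with at least 100 counts in each group and the same sign in all 4 replicates. Its input level was 29.5, 30.6, 23.6 and 26.2 CPM in control cells and 16, 17.4, 15.7 and 13.2 CPM in RAM siRNA cells. Its polysome level was 41.3, 36.7, 33.7 and 34.3 CPM in control cells and 8.40, 6.29, 9.23 and 10.3 CPM in RAM siRNA cells. The groups did not overlap in either fraction, and the mean log2 change was -2.11 in polysomes and -0.82 in input. The paired loading values were -1.42, -1.73, -1.28 and -0.75, with a log2 change of -1.28 (standard error 0.21) and an adjusted p of 0.174 without and 0.0022 with the replicate block within each fraction (edgeR).

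Cep55, a midbody protein needed for the last step of cytokinesis (chromosome 19, 38055011 to 38074423), showed the same order of levels. Input levels were 300.7, 319.7, 289.8 and 285.2 CPM in control cells and 217.4, 263.3, 238.5 and 178.5 CPM in RAM siRNA cells. Polysome levels were 232.7, 217.8, 150.9 and 162.1 CPM in control cells and 74.7, 87.7, 57.3 and 57.4 CPM in RAM siRNA cells, again without overlap. The loading values of Cep55 lay close together at -1.17, -1.03, -1.12 and -0.82, and the adjusted p was 1 without the block and 0.00201 with the block within each fraction (edgeR).

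The other 3 of the 5 lowest genes were Rps6kb2, a kinase of the ribosomal protein S6, Slc47a2, an exporter of organic cations, and the zinc finger gene Zfp839. Rps6kb2 had values of -0.71, -0.85, -0.80 and -0.41, with input nearly level (mean 0.12) and polysomes lower (-0.57). Slc47a2 and Zfp839 had means of -0.64 ± 0.32 and -0.63 ± 0.40 (SD, n = 4), and Zfp839 reached only -0.04 in replicate 2. None of these 3 passed either edgeR fit (adjusted p of 1 without the block and 0.361 to 0.421 with it).

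At the other end stood mostly very long transcripts. By the same limits on counts and sign, the 5 highest genes were Kmt2d, which encodes a histone H3 lysine 4 methyltransferase, Ttn, which encodes titin, Ahnak, which encodes a giant scaffold protein, the imprinted noncoding RNA Kcnq1ot1, and Ptgis, which encodes prostacyclin synthase. Ttn had 4 nearly equal paired values (0.62, 0.77, 0.67 and 0.81) and passed the fully paired edgeR fit (adjusted p = 0.00818, and 1 without the block). Its polysome level ranged from 32.6 to 117 CPM in control cells and from 50.1 to 348.5 CPM in RAM siRNA cells, so the groups overlapped although each RAM siRNA library was above the control of its number.

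Kcnq1ot1, which lies antisense within Kcnq1 (chromosome 7, 143203458 to 143296549), had values of 0.53, 0.92, 0.85 and 0.54 (fully paired edgeR fit, adjusted p = 0.012). Reads of the sense gene cannot be told apart if counting ignored strand, which the sources used here do not say. Ahnak was at 701.2 CPM in the polysome siRAM library of replicate 2 against 105.4 to 182.4 CPM in the other 3. Kmt2d, at 1.30, 0.41, 1.18 and 0.28, and Ptgis, at 0.90, 0.79, 0.56 and 0.38, did not pass any edgeR fit. Ptgis was the exception in length among these 5, with a coding sequence of 1527 nt, and its mean log2 change was -0.34 in input and 0.32 in polysomes.

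The remaining calls of the fully paired fit were Cdc14a, a phosphatase (values of -1.03, -1.08, -0.94 and -0.79, edgeR adjusted p = 0.012), and the noncoding gene Gm42418 (edgeR adjusted p = 0.0434), both named after their values were seen. Gm42418 varied more between replicates than between siRNAs, from 170.7 to 2415 CPM in polysome Ct, and its replicate 2 value was 0.34 against -3.16 to -1.80 in the others. Its mean of -1.75 was lower than that of Syap1. A limma fit of the 4 paired values called the other 5 genes of the fully paired fit but not Gm42418.

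Over all 13353 genes the changes were small. The mean paired value lay within 0.5 of 0 for 97.5% of genes, the 5th and 95th percentiles were -0.34 and 0.28, and 15 genes were beyond 1 in either direction. All 4 values were below 0 for 1361 genes (10.2%) and above 0 for 553 genes (4.14%). The median of all genes was slightly below 0 in each replicate (-0.04, -0.03, -0.03 and -0.04). Relative to that median, 913 genes (6.84%) were lower and 834 (6.25%) were higher in all 4 replicates, and with RLE scaling the counts around 0 were 845 and 903, so the excess of lower genes depends on where 0 is set.

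The replicates resembled each other only in part. Across genes, the paired values of replicates 1 and 3 had a Pearson r of 0.26, replicates 1 and 4 one of 0.10, and replicates 3 and 4 one of 0.12, over 13353 genes, which are not independent replicates. Replicate 2 had an r of -0.13, -0.14 and -0.08 with replicates 1, 3 and 4. The median SD of the 4 values of a gene was 0.27, whereas counting alone would give a single value an SD of 0.15.

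The length of the coding sequence separated the replicates more than any other feature examined. Among 12548 protein-coding genes, the Spearman correlation of the paired value with coding length across genes was -0.33, 0.54, -0.30 and -0.28 in replicates 1 to 4, given as a description since the genes of a library share its depth and scaling. In the shortest of 5 equal bins of genes (coding sequence of 777 nt or less) the median loading change was 0.13, -0.30, 0.22 and 0.09. In the longest bin (from 2571 nt) it was -0.14, 0.30, -0.09 and -0.13. Replicate 2 thus ran against the other 3 at both ends.

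**Figure D1:**
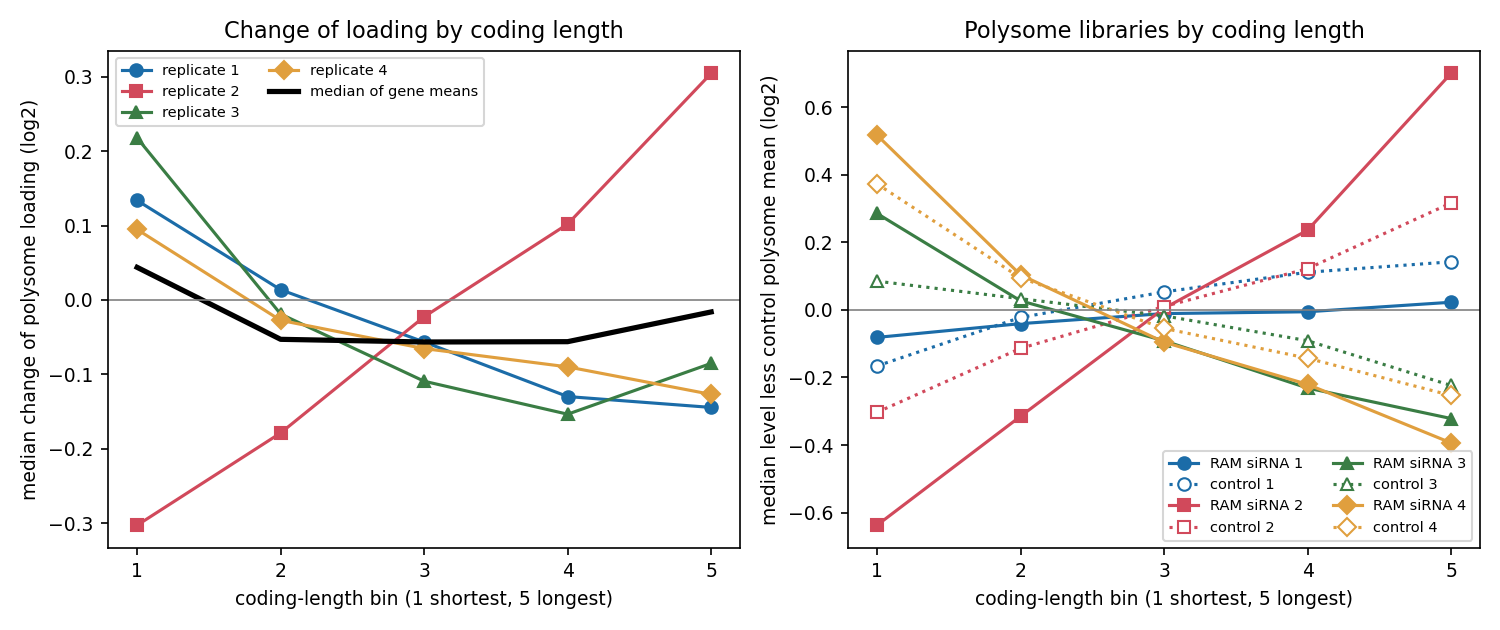
Medians over genes in 5 bins of coding length with about 2510 genes each. The left panel plots the change of polysome loading (log2) for the 4 replicates and for the mean of each gene, and the right panel plots each polysome library less the mean of the 4 control polysome libraries (log2), with control libraries dotted. Replicate 2 rises from -0.30 to 0.30 on the left, and its RAM siRNA library spans -0.64 to 0.70 on the right.

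The same pattern was visible in single libraries. Relative to the mean of the control polysome libraries, the polysome siRAM library of replicate 2 had a median of -0.64 in the shortest bin and 0.70 in the longest. The polysome Ct library of replicate 2 leaned the same way but less, from -0.30 to 0.32. The polysome siRAM libraries of replicates 3 and 4 leaned the other way, from 0.29 to -0.32 and from 0.52 to -0.39. Input libraries stayed within 0.09 of 0 in all bins. What set these slopes was not tested.

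At both extremes of length, genes above 0 in all 4 replicates made up a larger share than the 4.14% among all genes, while the class medians changed sign between replicates. Of 155 genes with a coding sequence over 8000 nt, 31 (20.0%) were higher in all 4 replicates and 0 were lower, with class medians of -0.08, 0.54, 0.17 and -0.01. Of 204 genes with a coding sequence of 300 nt or less, 42 (20.6%) were higher in all 4 and 0 were lower, with medians of 0.08, -0.07, 0.34 and 0.18. Lower genes were most frequent between 1000 and 2000 nt, at 735 of 4864 (15.1%). Correlations with the lengths of the 5′ and 3′ UTRs were between -0.04 and 0.13, those with the GC content of the transcript were between -0.12 and 0.08, and those with GC at the third codon position were between -0.15 and 0.17. Exon number, which goes with coding length, gave -0.25, 0.41, -0.28 and -0.24.

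Because gene families differ in length, values are also given after the median of genes of like coding length in the same replicate was subtracted (40 bins), a step chosen after seeing the data. On these length-adjusted values, 1051 of 12548 genes (8.38%) were lower and 979 (7.8%) higher in all 4 replicates. A limma fit of the 4 adjusted values called 31 genes (0.247%) at an adjusted p under 0.05, 21 lower and 10 higher. Named after their values were seen, the lower ones included Syap1, Cep55, Cdc14a, Rps6kb2, Zfp839 and Ramac, and also Srsf5, Hnrnpul1, Luc7l, Sfswap and Ccnl2, which take part in splicing or its control. Among the higher ones were Ttn, Ahnak, Ptgis, Hspg2, Prrc2c and the LIF receptor gene Lifr.

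Of the gene groups examined, 65 had at least 8 genes past the filter, and these groups together with the marker lists held 3108 distinct genes. Their median loading change ran from -0.18 to 0.11, and 60 of the 65 lay within 0.1 of 0. The medians of 16 groups were below 0 in all 4 replicates and those of 0 groups were above 0 in all 4, against a median of all genes that was itself below 0 in each replicate. In 41 groups, replicates 1 and 3 lay on one side of 0 and replicate 2 on the other. After length adjustment, 4 groups were below 0 in all 4 replicates and 0 above.

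**Figure D2:**
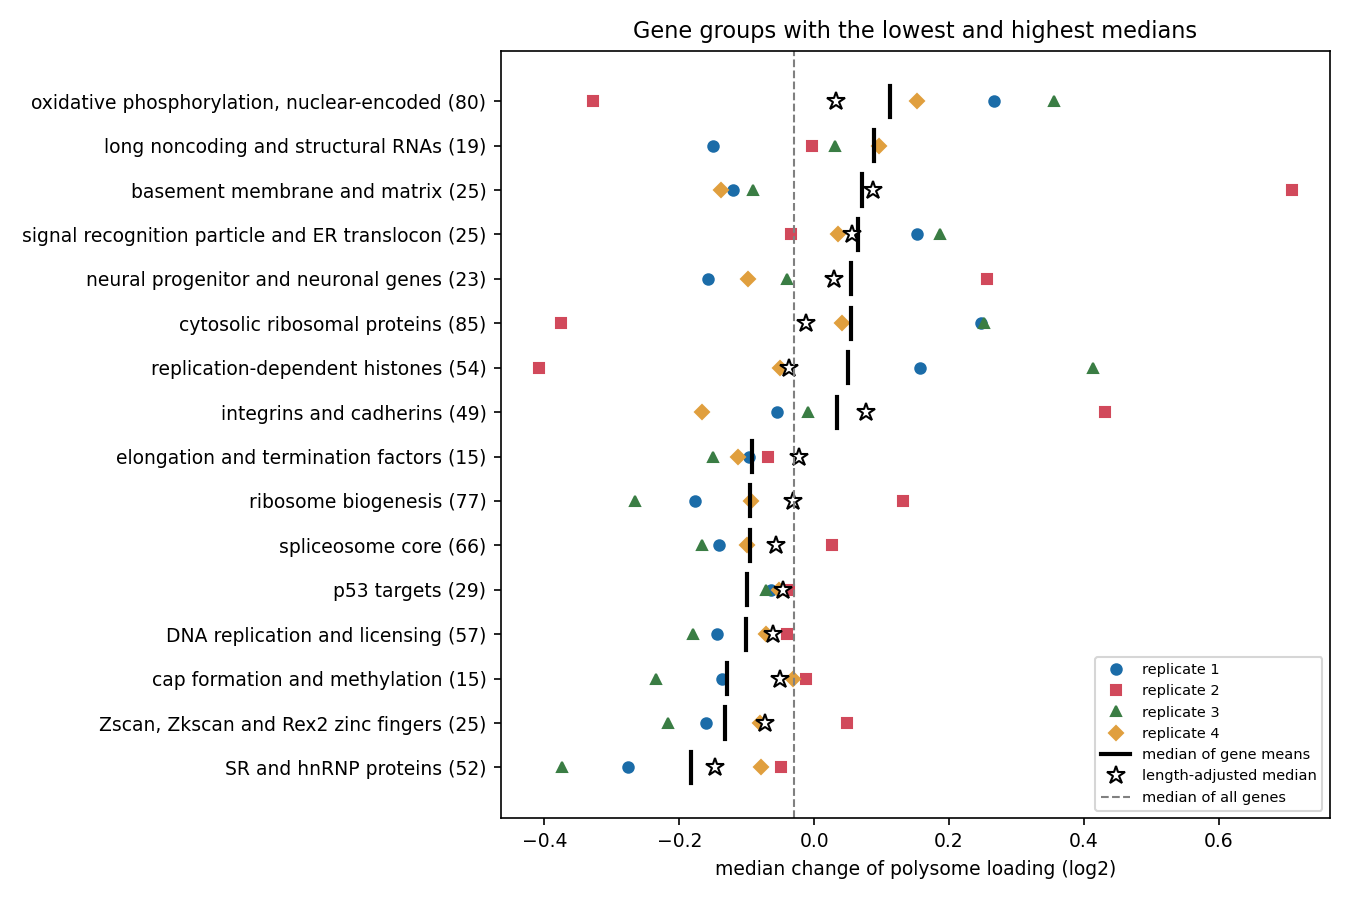
Median change of polysome loading (log2, horizontal axis) of the 8 gene groups with the lowest and the 8 with the highest medians, with the number of genes in brackets. Coloured points are the 4 replicates, black bars the median of gene means, stars the length-adjusted median, and the dashed line the median of all genes at -0.03. SR and hnRNP proteins lie lowest at -0.18, and replicate 2 is on the far side from replicates 1 and 3 in most groups with a high median.

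Genes for SR and hnRNP proteins, the RNA-binding proteins that select exons and package pre-mRNA, had the lowest median of all groups, -0.18, against -0.03 for all genes. The group medians in replicates 1 to 4 were -0.28, -0.05, -0.37 and -0.08 (SD 0.16), below 0 in all 4 but close to the median of all genes in replicates 2 and 4. Of 52 genes, 43 had a mean below 0, where 7777 of all 13353 genes did. Of the 52, 20 (38.5%) were below 0 in all 4 replicates against 10.2% of all genes, and 2 (3.85%) were above 0 in all 4 against 4.14%. Relative to the median of all genes, 14 genes (26.9%) were lower in all 4 against 6.84% of all genes, and 2 (3.85%) were higher against 6.25%. None of the 52 passed edgeR without the block or with the block within each fraction (lowest adjusted p of 1 and 0.421), and 4 had an unadjusted p under 0.05.

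**Figure D3:**
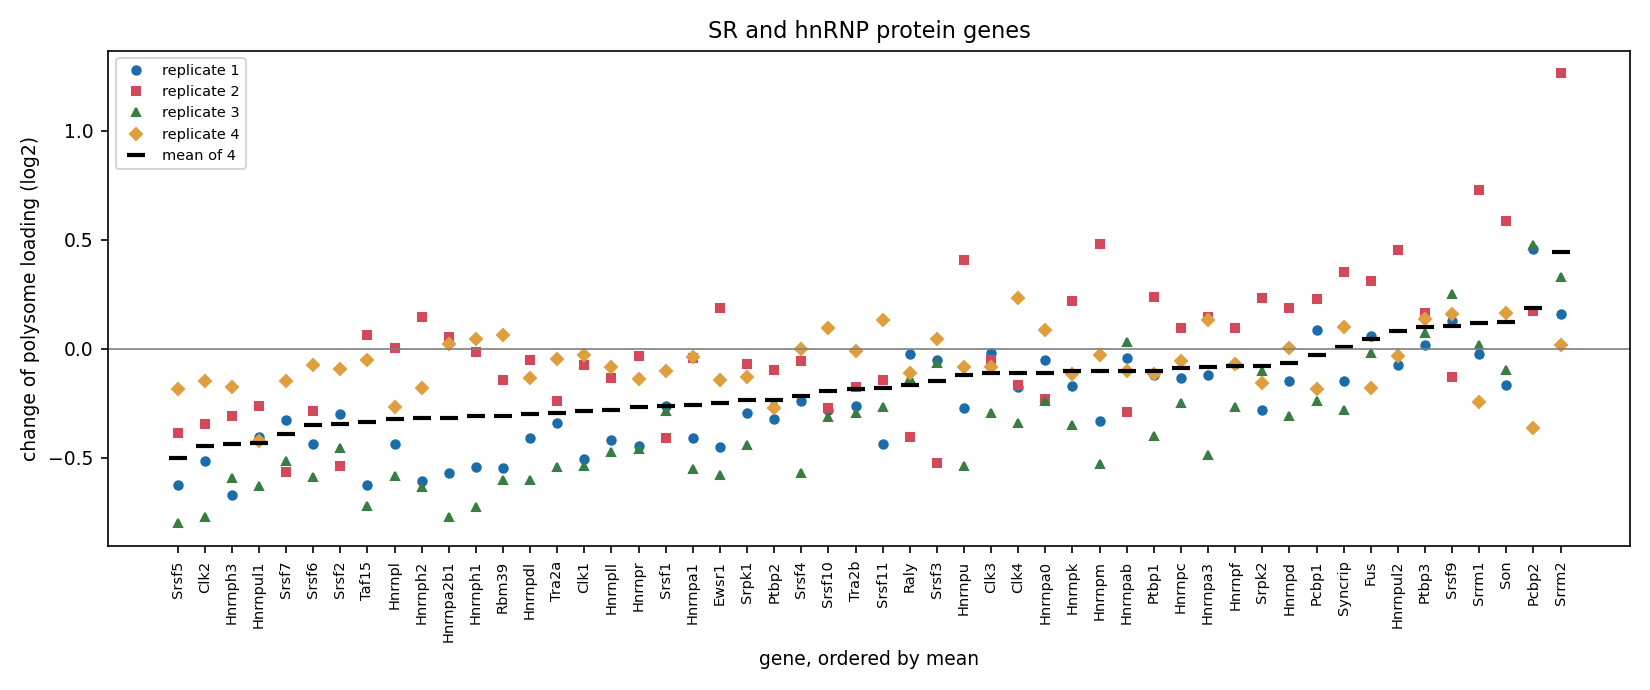
Change of polysome loading (log2) of each of the 52 SR and hnRNP protein genes in the 4 replicates (coloured points), with the mean as a black bar, ordered by the mean. Srsf5 is lowest at -0.50 and Srrm2 highest at 0.44, and replicates 1 and 3 lie below replicates 2 and 4 for most genes.

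Means below 0 were found among the Srsf, Tra2, kinase and Hnrnp genes alike, with medians of -0.24, -0.24, -0.17 and -0.19, and differences between roles were not tested. Among all genes, 7777 of 13353 had a mean below 0 and 10.2% were below 0 in all 4 replicates. Of the 10 Srsf genes, which encode the serine and arginine rich splicing activators, 9 had a mean below 0 and 6 were below 0 in all 4 replicates. Both Tra2 genes, splicing activators related to the SR proteins, were below 0 in all 4. Of 6 genes for Clk and Srpk kinases, which phosphorylate SR proteins, 6 had a mean below 0 and 4 were below 0 in all 4. Of 20 Hnrnp genes, 19 had a mean below 0 and 6 were below 0 in all 4, with replicate medians of -0.37, 0.03, -0.51 and -0.08. Among the other 14 members, with a median of -0.01, 7 had a mean below 0, and both genes above 0 in all 4 replicates, Srrm2 and Ptbp3, were among them.

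Srsf5 had the lowest mean of the group. Its input level was 716.7, 658.1, 688.0 and 693.8 CPM in control cells and 817.0, 794.2, 900.7 and 684.4 CPM in RAM siRNA cells. Its polysome level was 429.7, 374.3, 410.3 and 356.2 CPM in control cells and 318.0, 345.2, 308.3 and 309.7 CPM in RAM siRNA cells, where the groups did not overlap. The loading values of Srsf5 were -0.62, -0.39, -0.80 and -0.18, with a mean of -0.50 ± 0.27 (SD, n = 4).

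Clk2, a kinase of SR proteins, had the same order, with 31.5 to 33.6 CPM in input Ct against 34.1 to 38.4 CPM in input siRAM, and 30.1 to 32.2 CPM in polysome Ct against 21.9 to 28.3 CPM in polysome siRAM, and neither pair of ranges overlapped. Its loading values were -0.52, -0.35, -0.77 and -0.15. Hnrnph3, which binds G-rich RNA, was about level in input (mean change 0.06) and at 45.6 to 57.7 CPM in polysome Ct against 35.7 to 43.6 CPM in polysome siRAM. Hnrnpul1 differed from these in that it was also lower in input, at 97.2 to 106.2 CPM in control cells and 68.4 to 73.9 CPM in RAM siRNA cells. Its polysome level was 99.2 to 106.0 CPM in control cells and 48.7 to 64.2 CPM in RAM siRNA cells, so the groups were apart in both fractions, with mean log2 changes of -0.94 in polysomes and -0.51 in input.

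By fraction, the median change of the group was 0.03 in input and -0.18 in polysomes, and the medians over replicates 1 to 4 were -0.01, 0.05, 0.11 and -0.04 in input and -0.28, 0.01, -0.27 and -0.10 in polysomes. All genes had medians of 0.0007 in input and -0.03 in polysomes. The shares of all genes above and below 0 within a fraction were not computed, so the member counts below are descriptions only. Srsf genes had a median of 0.09 in input, with 7 of 10 above 0, and of -0.20 in polysomes, with 9 of 10 below 0. All 6 Clk and Srpk genes were above 0 in input. Hnrnp genes had a median of -0.08 in input, with 7 of 20 above 0, and of -0.23 in polysomes, with 18 of 20 below 0. Members with loading above 0 included Srrm2 (0.16, 1.26, 0.33 and 0.02), whose coding sequence is 8109 nt, and Son, also long, which was on both sides of 0 (-0.16, 0.59, -0.10 and 0.16), together with Srsf9 (0.13, -0.13, 0.25 and 0.16).

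With length adjusted, the median of the group was -0.15, 15 of 52 genes (28.8%) were lower and 4 (7.69%) higher in all 4 replicates, and the replicate medians were -0.22, 0.02, -0.30 and -0.03. The group was thus lower in replicates 1 and 3, and within 0.03 of 0 in replicates 2 and 4. In the limma fit of adjusted values, Hnrnpul1 (mean -0.37, adjusted p = 0.0396) and Srsf5 (mean -0.47, adjusted p = 0.0449) passed. Without replicate 2, 32 of the 52 genes (61.5%) were below 0 in all 3 remaining replicates against 27.7% of all genes.

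Many of these genes make alternative transcripts with premature stop codons or kept introns. Of the 52 genes, 33 have in GENCODE M21 both a transcript annotated for nonsense-mediated decay and one with a retained intron, and 17 of these (51.5%) were below 0 in all 4 replicates, with a median of -0.23. Of the 19 others, 3 were below 0 in all 4 and the median was -0.10. Among all protein-coding genes, those with both kinds of annotated transcript were below 0 in all 4 replicates in 14.3% of 2796, and those with neither in 8.23% of 4496. After length adjustment these shares were 11.4% and 6.72%. The genes with both were also more highly counted, with a median of 714.8 counts in input Ct against 310.2, and the part of level in the difference was not tested.

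The spliceosome core, whose members include proteins of the splicing particles and the helicases that drive them, had a median of -0.09, with replicate medians of -0.14, 0.03, -0.17 and -0.10. Of its 66 genes, 13 (19.7%) were below 0 in all 4 replicates against 10.2% of all genes, and 0 were above. Relative to the median of all genes, 7 (10.6%) were lower and 1 (1.52%) higher in all 4, against 6.84% and 6.25% of all genes. Length-adjusted, 10 (15.2%) were lower and 3 (4.55%) higher, against 8.38% and 7.8%. Its lowest members were Prpf39 and Snrnp70, both of U1 particles, with means of -0.47 ± 0.17 and -0.44 ± 0.33 (SD, n = 4), and Prpf38b and Snrnp48, with -0.40 ± 0.25 and -0.38 ± 0.26. All 4 were below 0 in each replicate. Prpf39 was level in input (mean change 0.09) and at 15.7 to 29.5 CPM in polysome Ct against 11.9 to 22.4 CPM in polysome siRAM, where each RAM siRNA library was below the control of its number but the groups overlapped. The median of the spliceosome core was -0.06 after length adjustment, -0.05 without replicate 1 and -0.145 without replicate 2.

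Cap formation and methylation, the group of 15 genes that holds Ramac itself, had a median of -0.13, with replicate medians of -0.14, -0.01, -0.23 and -0.03. The median was -0.05 after length adjustment and -0.08 without replicate 3. Of the 15, 5 (33.3%) were below 0 in all 4 replicates against 10.2% of all genes, and Ramac is 1 of these. The lowest members after Ramac do not act on the cap guanosine. Mat2a and Mat2b encode subunits of the enzyme that makes the methyl donor S-adenosylmethionine, and Mettl3 and Mettl14 the methyltransferase for adenosine within mRNA. Mat2a was at 400.5 to 447.1 CPM in input Ct and 455.3 to 496.1 CPM in input siRAM, ranges that did not overlap, and its loading values were -0.49, -0.11, -0.70 and -0.26. Mettl3 was at -0.68, -0.13, -0.51 and -0.10, and Mettl14 was above 0 in replicate 2 (0.13).

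DNA replication and licensing genes had a median of -0.10, with replicate medians of -0.14, -0.04, -0.18 and -0.07. Of 57 genes, 11 (19.3%) were below 0 in all 4 replicates and 1 (1.75%) above, against 10.2% and 4.14% of all genes. Rfc3, a subunit of the clamp loader, had values of -0.33, -0.38, -0.45 and -0.13. Pole2, a subunit of DNA polymerase epsilon, had values of -0.32, -0.12, -0.54 and -0.21. The kinase gene Cdc7 and the licensing factor Cdt1 had means of -0.25 and -0.24. The median of the group was -0.19 in polysomes and -0.08 in input, and -0.06 in loading after length adjustment, when 11 genes (19.3%) were lower and 3 (5.26%) higher in all 4, against 8.38% and 7.8% of all genes.

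The remaining groups at the low end were smaller or moved with length. Zscan, Zkscan and Rex2 zinc finger genes had a median of -0.13, with replicate medians of -0.16, 0.05, -0.22 and -0.08. The median was -0.08 and -0.07 without replicates 1 and 3 and -0.07 after length adjustment. Of these 25 genes, 2 (8.0%) were below 0 in all 4 replicates, against 10.2% of all genes, and the members that lay lowest were Zscan18 (-0.34 ± 0.40, SD, n = 4) and Zscan25 (-0.31 ± 0.27). Ribosome biogenesis genes had a median of -0.09, with 0.13 in replicate 2, and 13 of 77 (16.9%) were below 0 in all 4, among them Nle1 (-0.35, -0.26, -0.52 and -0.12). Their median was -0.19 without replicate 2, -0.05 without replicate 3 and -0.03 after length adjustment. Targets of p53 had a median over gene means of -0.10, but replicate medians of only -0.06, -0.04, -0.07 and -0.05. Of 29 genes, 6 (20.7%) were below 0 in all 4 and 2 (6.9%) above, against 10.2% and 4.14% of all genes. Relative to the median of all genes 3 were lower and 3 higher in all 4, and after length adjustment 4 were lower and 4 higher. Their median was -0.06 without replicate 4 and -0.05 after length adjustment. Phlda3, a p53-induced inhibitor of Akt, was lowest at -0.28 ± 0.30.

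Elongation and termination factors had a median of -0.09, with replicate medians of -0.10, -0.07, -0.15 and -0.11, the most even of the groups at the low end apart from p53 targets. Of 15 genes, 5 (33.3%) were below 0 in all 4 against 10.2% of all genes. Hbs1l, which rescues stalled ribosomes, had values of -0.25, -0.31, -0.19 and -0.11, and Eef1d, a subunit of the exchange factor of elongation factor 1, had values of -0.03, -0.13, -0.18 and -0.13. The median was -0.05 without replicate 3 and -0.02 after length adjustment, when 2 genes were lower and 2 higher in all 4.

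Groups of short transcripts lay at the high end, and there replicate 2 disagreed with the rest. Nuclear-encoded oxidative phosphorylation subunits, the proteins of the mitochondrial respiratory chain, had the highest median, 0.11, with replicate medians of 0.27, -0.33, 0.36 and 0.15 and a median coding length of 410 nt. Of 80 genes, 5 (6.25%) were above 0 in all 4 replicates and 1 (1.25%) below, against 4.14% and 10.2% of all genes, so the share above was near that of all genes. The highest members were Ndufb4 (0.63, -0.26, 0.55 and 0.38), Cox7c, Uqcr10 and Ndufa1, with means of 0.27 to 0.32. Uqcr10 alone of these 4 was above 0 in each replicate (0.34, 0.30, 0.32 and 0.13). Length adjustment brought the median of the group to 0.03, and it ranged from 0.04 to 0.26 with 1 replicate left out, lowest without replicate 3 and highest without replicate 2.

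Cytosolic ribosomal protein genes had replicate medians of 0.25, -0.38, 0.25 and 0.04, a median of 0.05 and 6 of 85 genes (7.06%) above 0 in all 4 replicates against 3 (3.53%) below, where all genes had 4.14% and 10.2%. The highest were Rpl39l, Rpl22l1, Rpl39 and Rps28, at means of 0.21 to 0.27, and these counts can be split with processed pseudogenes. With length adjusted the median was -0.01, without replicate 1 or replicate 3 it was -0.03, and without replicate 2 it was 0.19. Replication-dependent histone genes, whose messages lack a poly(A) tail, had replicate medians of 0.16, -0.41, 0.41 and -0.05. None of the 54 was below 0 in all 4, and 2 (3.7%) were above, with a median of 0.05. Without replicate 2 the median was 0.18, without replicate 1 it was 0.01, without replicate 3 it was -0.09, and length-adjusted it was -0.04. On length-adjusted values, 9 of the 54 (16.7%) were below 0 in all 4 replicates and 0 above, against 8.38% and 7.8% of all genes. Copies of these histone genes are nearly identical, so such counts and single genes such as Hist1h2bn (0.40, 0.01, 0.35 and 0.05) are uncertain.

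Genes for basement membrane and matrix proteins are long, with a median coding length of 4821 nt, and had the opposite signs. Their replicate medians were -0.12, 0.71, -0.09 and -0.14, so the median of 0.07 over gene means rests on replicate 2. Without replicate 2 the median of the group was -0.125, and without replicates 1 and 4 it was 0.152 and 0.155. Single members were above 0 in each replicate, among them Hspg2, which encodes perlecan (0.49, 0.91, 0.44 and 0.13), and Fn1, which encodes fibronectin (0.35, 1.03, 0.26 and 0.17). Integrins and cadherins had a median of 0.03 with 0.43 in replicate 2, and 5 of 49 (10.2%) were above 0 in all 4 against 4.14% of all genes. Neural progenitor and neuronal genes had a median of 0.06 with 0.26 in replicate 2 and the other replicates below 0. Both medians were below 0 without replicate 2, at -0.05 and -0.11, without replicate 3 they were 0.07 and 0.0049, and without replicate 4 they were 0.08 and 0.02.

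Genes of the signal recognition particle and the ER translocon, which route nascent secretory proteins into the ER, had a median of 0.06 with replicate medians of 0.15, -0.03, 0.19 and 0.04. None of the 25 was below 0 in all 4 replicates and 2 (8.0%) were above, against 10.2% and 4.14% of all genes. The median of the group was 0.03 without replicate 3. Sec61g, a subunit of the channel, had values of 0.36, 0.12, 0.95 and 0.16. Long noncoding and structural RNAs had a median of 0.09 over 19 genes, but 3 (15.8%) were below 0 in all 4 and 2 (10.5%) above. These shares were 10.2% and 4.14% among all genes. Without replicates 2 and 4 the median of the group was 0.02 and -0.03, and among members with at least 100 counts in each group it was -0.09. After Kcnq1ot1 the highest of those members was Neat1 (0.23, 0.62, 0.07 and 0.12).

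Families sharing a symbol stem, 93 with at least 15 genes, gave a similar range. The lowest medians were those of Nr (nuclear receptors, -0.15), Rad (recombination and repair, -0.13), Dhx (RNA helicases, -0.12), Trmt (tRNA methyltransferases, -0.11) and Ints (Integrator subunits, -0.11). Rad genes were below 0 in all 4 replicates in 8 of 18 cases (44.4%, against 10.2% of all genes), with replicate medians of -0.12, -0.23, -0.16 and -0.14. Length-adjusted, 5 Rad genes were lower in all 4 and 0 higher, where all genes had 8.38% and 7.8%. Rad is a stem of symbols that joins proteins of unlike function. Below 0 in all 4 were 2 of 15 Nr (13.3%), 3 of 15 Dhx (20.0%), 3 of 16 Trmt (18.8%) and 1 of 15 Ints genes (6.67%). Another Ints gene was above 0 in all 4. Ints and Dhx genes were above 0 in replicate 2 (0.31 and 0.16). The highest medians were those of Cox (cytochrome c oxidase subunits and assembly factors, 0.14), Timm (mitochondrial import, 0.11), Smim (small membrane proteins, 0.10), Tspan (tetraspanins, 0.10) and the stem B (0.09), which joins unrelated genes. Each of these 5 had a replicate 2 median below 0. After length adjustment the medians were -0.09, -0.07, -0.08, -0.06 and -0.06 for Nr, Rad, Dhx, Trmt and Ints, and 0.05, 0.06, -0.01, 0.12 and 0.13 for Cox, Timm, Smim, Tspan and B, so Smim turned sign.

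The pluripotency factors were examined next. Nanog was at 236.8 to 278.0 CPM in input Ct and 202.3 to 221.7 CPM in input siRAM, and at 406.4 to 474.8 and 307.2 to 367.3 CPM in polysomes, without overlap in either. Its loading values were -0.02, 0.04, -0.18 and -0.09. Pou5f1, which encodes Oct4, had loading values of 0.06, -0.48, 0.18 and 0.06, Sox2 of -0.22, -0.09, -0.22 and -0.00, and Klf4 of 0.12, -0.13, -0.07 and 0.00. The 4 log2 changes of loading were between -0.13 and 0.01 with standard errors of 0.15 to 0.33 (edgeR, adjusted p of 1 for each).

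Groups whose level shifted in both fractions are given side by side. Naive pluripotency factors had a median change of -0.12 in input and -0.22 in polysomes, with loading at -0.04. MHC class I presentation genes had medians of 0.30 in input and 0.25 in polysomes, with loading at -0.03, and germline genes expressed in ESCs had 0.30 and 0.22, with loading at -0.03. Over the 65 groups, medians in input ran from -0.14 to 0.30 and those in polysomes from -0.23 to 0.25, a wider range than that of loading.

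**Figure D4:**
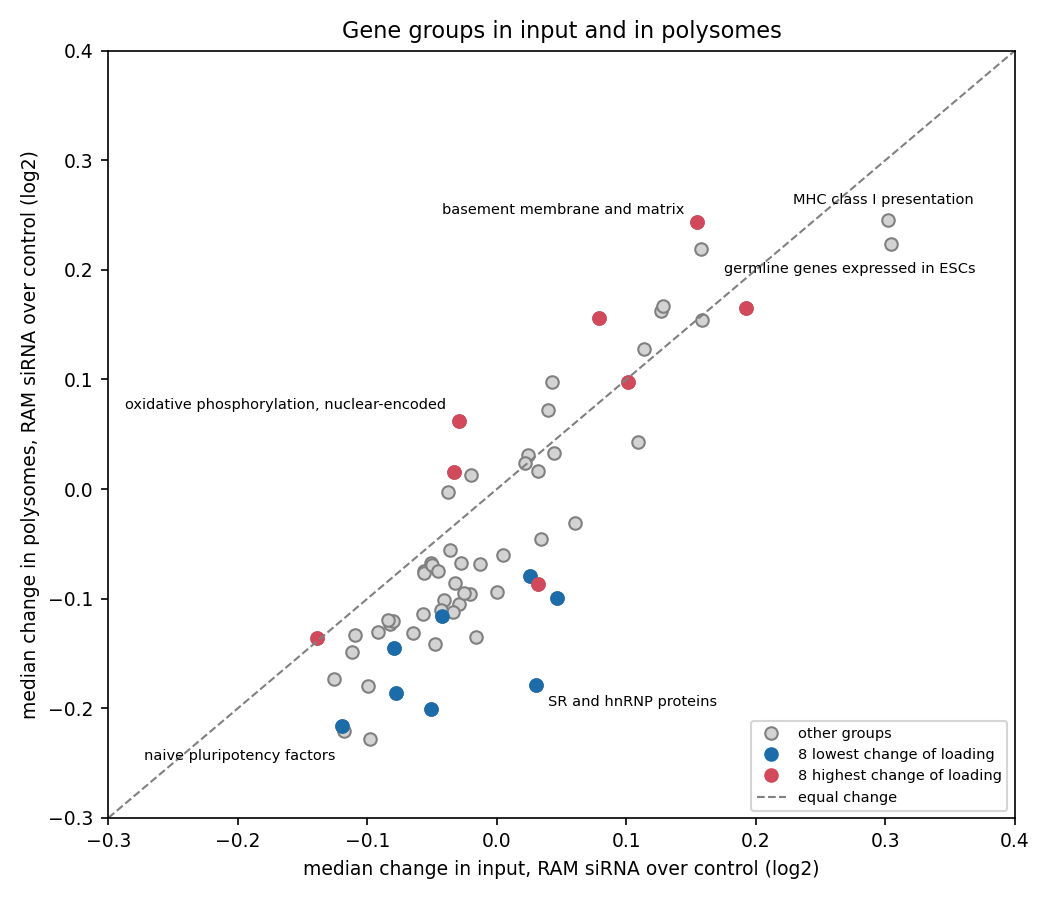
Median log2 change of RAM siRNA over control of 65 gene groups in input (horizontal axis) and in polysomes (vertical axis), with blue points for the 8 groups with the lowest and red points for the 8 with the highest change of loading. On the dashed line both fractions changed equally, and SR and hnRNP proteins lie furthest below it, at 0.03 in input and -0.18 in polysomes.

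The start of the transcript was examined because it carries the cap. For 7866 of the protein-coding genes with 1 promoter window in RefSeq (GRCm38.p6), the base at the annotated start was read from the strand of the gene. The median loading change was -0.03 for starts with A (2181 genes), C (1227), G (3737) and T (721) alike. Starts with C followed by at least 4 pyrimidines (C or T), a pattern like that of 5′ terminal oligopyrimidine messages, were found in 197 genes (2.5%), with a median of -0.03 as among the other 7669. A list of 22 genes of 5′ terminal oligopyrimidine messages outside the ribosome lay lower, at -0.09, with replicate medians of -0.11, -0.05, -0.26 and -0.13. Of these, 6 (27.3%) were below 0 in all 4 replicates and 0 above, against 10.2% and 4.14% of all genes. Length-adjusted, their median was -0.04, with 4 (18.2%) lower and 0 higher in all 4, against 8.38% and 7.8% of all genes. Of 54 cytosolic ribosomal protein genes with a window, 13 (24.1%) began with C and at least 4 pyrimidines at the annotated start. The starts used in these cells were not measured, so a dependence of loading on the true first base was not tested.

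The starts of the 4 most highly counted of these 13 ribosomal protein genes and of the 4 lowest SR, kinase and hnRNP genes with at least 100 counts in each group are shown as 10 bases before and 10 bases from the annotated start, 5′ to 3′, with the run of pyrimidines that begins at the start in capitals.
Rpl14: ggccctctctCTTCTCgctg
Rps18: cacttccgctCTCTCTTCCa
Rps15a: tttctgccatCTTCCCTCgc
Rplp2: cagcgtcttcCTTTCgccgc
Srsf5: caggacgtccCTTCCatttt
Clk2: ggacgtgcgtgcgtctgtgc
Hnrnph3: ttggcgcggcgggagacggt
Hnrnpul1: ggccatcttgagccgccgcc

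Srsf5, whose loading was lowest in its group, begins with a run of 5 pyrimidines in RefSeq, whereas Clk2, Hnrnph3 and Hnrnpul1 have none at the annotated start. Rpl14, Rps18, Rps15a and Rplp2 begin with runs of 5 to 9 and had mean loading changes of -0.04, 0.04, 0.06 and 0.08.

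Transcripts outside the protein-coding class add a last comparison, and for RNA that is not translated the value is a ratio of fractions rather than ribosome loading. The 17 snoRNA genes had the lowest median of the annotated classes with at least 15 genes, -0.28, with replicate medians of -0.34, -0.18, -0.49 and -0.26. Of these snoRNA genes, 3 were below 0 in all 4 replicates and 0 above, against 10.2% and 4.14% of all genes. They were scarce in polysomes (median loading of -3.26 on the log2 scale in control cells) and their median change was 0.19 in input and -0.07 in polysomes. The 361 processed pseudogenes, which share reads with their parent genes, had replicate medians of 0.09, -0.21, 0.15 and 0.03, the signs of the ribosomal protein genes. The 114 lincRNAs had a median of -0.03, that of all genes.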

How the data were processed

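RNA of 16 libraries (4 groups of 4) was measured. The authors mapped the reads to GRCm38 with STAR 2.5.1b and counted them with htseq-count, and the deposited table holds whole-number counts per Ensembl gene without normalization or filter. The strand and overlap settings are not given in the sources used here. No column belonged to another sample (0 of them), and gene symbols came from GENCODE M21, which held 13321 of the 13353 IDs.

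Genes with at least 10 mean counts in each group were kept. Library sizes were scaled by TMM, a pseudocount of 0.5 counts was added for the paired log2 values, and the interaction of fraction and siRNA was fitted over all 16 libraries by edgeR 4.0.16 in R 4.3.3 (quasi-likelihood test), without a block and with Benjamini-Hochberg adjustment. Alternatives used DESeq2 1.42.0, limma 3.58.1, other scalings, filters and blocks, and libraries left out. Coding length is that of the longest annotated coding sequence of a gene.

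The replicate numbers paired the libraries. Over 9498 genes, the lowest r of same-numbered deviations was 0.376 between input groups, 0.61 between polysome groups, 0.244 between control fractions and 0.304 between RAM siRNA fractions, and libraries with other numbers had mean r between -0.272 and -0.132. No library was a copy of another, since the chi-square per gene within a group was 4.94 to 33.4 in input and 23.3 to 321 in polysomes, above the value of counting error alone. Intervals from counts cover counting error only, and the SD of 1 paired value from counting was 0.108 for genes with at least 100 counts in each group.

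Genes, lists and tests were chosen with earlier results of these data known. Genes named are Ramac, Rnmt, Pou5f1, Sox2, Klf4 and Nanog, the 5 lowest and 5 highest means among genes with at least 100 counts in each group and the same sign in all 4 replicates, and up to 4 members furthest in the direction of the median in each of the 8 lowest and 8 highest lists. Ptbp3, Srrm2, Son, Srsf9, Luc7l, Sfswap, Ccnl2, Prrc2c and Lifr were named after their values were seen, as were the ribosomal protein genes shown with their start sequences. The comparisons computed by the authors were not used.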

Additional observations from a re-analysis of the deposited data

Results flagged for a closer look

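Of 37 results with 4 replicate values each, 2 had a replicate far from the other 3, and both were replicate 2. The results share genes and libraries, so no number to be found by chance is given. The median loading change of basement membrane and matrix genes was 0.709 in replicate 2 and between -0.14 and -0.09 in the others. The median of the longest coding-length bin was 0.304 in replicate 2 and between -0.14 and -0.09 in the others. The cause was not tested.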

How the results depend on the processing

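The count of genes past the threshold was 0 without a block, 2 with the replicate block within each fraction, 6 with the replicate block and culture (fully paired), 5 with limma on the paired values, 1 with the likelihood ratio test, 1 with DESeq2 and 31 with limma on length-adjusted values. The additive replicate block and the culture block gave 0, as did limma-voom, the other scalings, filters, an adjusted p under 0.1 and each replicate or library left out, where 33 to 424 genes had an unadjusted p under 0.05 (424 without the polysome siRAM library of replicate 2), against 288 and 187 with those blocks.

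Ramac was at 27.5% to 28.4% of control in input and 13.7% to 19.4% in polysomes without 1 replicate, when 3 against 3 cannot go below p = 0.1 in the exact permutation test. The median of p53 targets was -0.0557 with RLE, -0.0649 with upper-quartile and -0.0827 with library-size scaling, -0.12 from gene medians, -0.0457 length-adjusted and -0.0894 to -0.0618 without 1 replicate. That of elongation and termination factors was -0.0486 with RLE, -0.0578 with upper-quartile scaling, -0.132 from gene medians, -0.0219 length-adjusted and -0.0952 to -0.0529 without 1 replicate. That of long noncoding and structural RNAs was -0.0921 at 100 counts and -0.0256 to 0.105 without 1 replicate, and it has no length-adjusted value. The medians of the other 13 groups moved by less than the SD of their replicate medians, but several moved by over 1.5 times. With RLE scaling cap formation was at -0.0859, DNA replication at -0.0579, the spliceosome core at -0.0511 and ribosome biogenesis at -0.0506, and the values without single replicates or length are given with each group. Leaving out 1 replicate turned the sign for ribosomal proteins, histones, basement membrane, integrin and neural genes, and length adjustment turned it for ribosomal proteins and histones. From gene medians, basement membrane genes were at -0.0809 and neural genes at -0.0929, and neural genes at 100 counts were at -0.0757.

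Genes with 4 values below 0 numbered 845 with RLE scaling, and those above 0 numbered 903 with RLE scaling, 834 less the median of all genes and 979 length-adjusted. With 1 replicate left out, 1967 to 3696 genes were below and 897 to 2309 above in the other 3, the highest of each without replicate 2. Of the SR and hnRNP genes, 12 were below 0 with RLE scaling, 13 with upper-quartile scaling and 20 to 32 with 1 replicate left out, and 4 were above 0 length-adjusted. The causes of these shifts were not tested. The median SD of the 4 values, 0.27, limits what single genes can show.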
